A study of Mus musculus with 3 samples.

Results

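Haem biosynthesis genes were examined in bone marrow (BM) myeloid cells after sustained exposure to IL-27. The set holds 9 genes, taken by symbol from the 16072 named genes of the expression table: Alas1, Alas2, Alad, Uros, Urod, Cpox, Ppox, Fech and Slc25a38. The RNA came from BM cells of C57BL/6 mice that are labelled Ly6G+, and that the study calls Gr-1+ (Gr-1 antibodies also bind Ly6C). All mice, controls included, had been given subcutaneous B16.F10 (mouse melanoma) cells 1 week earlier than the adeno-associated virus (AAV) vector. AAV-IL-27 is an AAV2/8 vector given into muscle, from which the ubiquitous CAG promoter drives a linked EBI3 and p28 chain, the 2 subunits of the cytokine IL-27. AAV-Ctrl is the same type of vector without the cytokine. Cells were collected 3 weeks after the vector. In all, 3 libraries were analysed, 2 from AAV-Ctrl and 1 from AAV-IL-27, and the design text names 2 AAV-Ctrl mice and 1 AAV-IL-27 mouse. A further column of the table is named as another AAV-IL-27 replicate but fits none of the listed samples, so its values were set aside. The labels gave no age, and the study's methods describe young adult mice.

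Haem is built from glycine and succinyl-CoA in a chain of enzymes that begins and ends in the mitochondrion and passes through the cytosol in between. Every cell makes haem for cytochromes and other enzymes, and red cell precursors make far more of it to fill haemoglobin. The first step has separate isozymes: ALAS1 serves all cells, whereas ALAS2 is restricted to the erythroid lineage. Neutrophils carry haem in myeloperoxidase and in the cytochrome of the NADPH oxidase.

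In the AAV-IL-27 library 4 of the 9 genes (Alas2, Cpox, Fech and Alad) lay at least 1 log2 unit below both AAV-Ctrl libraries and none lay that far above. Of 9130 genes tested, those whose mean FPKM reached 1, 212 (2.32%) lay that far below and 28 (0.307%) that far above. All 9 genes passed this filter, though Alad was under 1 FPKM in AAV-IL-27. Values are FPKM (fragments scaled by transcript length and by the library's mapped fragments), and differences are on the log2(FPKM + 1) scale, taken as AAV-IL-27 minus the AAV-Ctrl mean, unless stated otherwise. This scale understates the change of genes with low FPKM. The median difference was -0.80 over the 9 genes and -0.01 over all genes tested. Between the AAV-Ctrl libraries (library 2 minus library 1) the corresponding medians were -0.09 and 0.0. With any shortfall counted, 7 of the 9 genes lay below both AAV-Ctrl libraries (as did 41.9% of all genes tested), Ppox lay between them and Slc25a38 lay above both. With 1 AAV-IL-27 library there is no replicate error in that group, no test was run, and each difference compares these libraries only.

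**Figure D1:**
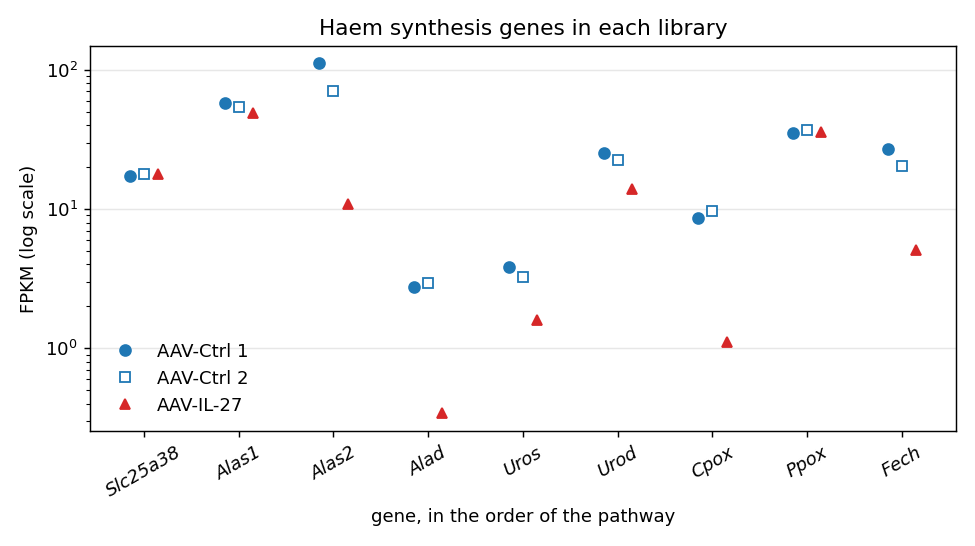
FPKM (log scale) of the 9 haem biosynthesis genes, in pathway order on the horizontal axis, with 1 point per library (circles and squares, AAV-Ctrl 1 and 2; triangles, AAV-IL-27). Alas2, Alad, Cpox and Fech have triangles far below both control points, at 10.81, 0.34, 1.11 and 5.04 FPKM, whereas the 3 points of Slc25a38 and of Ppox lie on top of each other.

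Neutrophil markers had by far the highest levels of the marker lists, and erythroid markers were present in every library. The 12 neutrophil markers summed to 187200 and 183700 FPKM in the controls and 177000 in AAV-IL-27, and none of the 12 was called lower or higher. Ly6g, the gene of the antigen in the cells' label, was at 711.76, 766.11 and 586.29 FPKM. The 15 erythroid markers (none of them a haem biosynthesis gene) summed to 12640, 8760 and 1491 FPKM, and 15 of 15 were lower, with none at 0 in AAV-IL-27. Estimated depth was alike, at 19000000, 19300000 and 18900000 fragments. In a bulk sample, fewer erythroid cells and less RNA per cell cannot be told apart. The part of erythroid RNA in the values below was not tested.

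Alas2 encodes the erythroid isozyme of 5-aminolevulinate synthase, which joins glycine and succinyl-CoA in the rate-limiting step. Its FPKM was 111.4 in the first AAV-Ctrl library, 70.33 in the second and 10.81 in AAV-IL-27, and values of other genes are given in the same order. It had the highest FPKM of the 9 genes in both AAV-Ctrl libraries and rank 5 in AAV-IL-27. The AAV-Ctrl mean was 90.9 ± 29.0 FPKM (SD, n = 2), and the AAV-IL-27 value was 11.9% of it, or 8.41-fold lower. The log2 difference was -2.92 (-3.25 against AAV-Ctrl 1 and -2.59 against AAV-Ctrl 2), rank 8 when the 9130 genes are ordered by how far they lay below the nearer AAV-Ctrl library. The AAV-Ctrl libraries themselves differed by -0.66 at Alas2, a gap exceeded by only 59 genes (0.646%), so the controls lay further apart here than at nearly all genes, though by less than either lay from AAV-IL-27. Estimated fragments behind the values were 4010, 2572 and 389 (exact 95% Poisson interval of the last 351 to 430, counting error only).

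Alas1, the housekeeping isozyme that most cells regulate by haem itself, stood at 57.52, 53.83 and 48.83 FPKM. The difference of -0.18 leaves AAV-IL-27 at 87.7% of the AAV-Ctrl mean of 55.7 ± 2.61 FPKM (SD, n = 2). It lay below both controls by more than the gap of -0.09 between them, but far inside the call of 1 log2 unit. Which isozyme had the higher level thus differed between the groups. Alas2 made up 65.9% and 56.6% of the summed Alas1 and Alas2 FPKM in the AAV-Ctrl libraries and 18.1% in AAV-IL-27. The ratio of Alas2 to Alas1 was 1.94, 1.31 and 0.221. The summed FPKM of the pair was 168.9, 124.2 and 59.64, with most of the shortfall in Alas2. Alas1 ranked second of the 9 genes in both AAV-Ctrl libraries and first in AAV-IL-27.

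**Figure D2:**
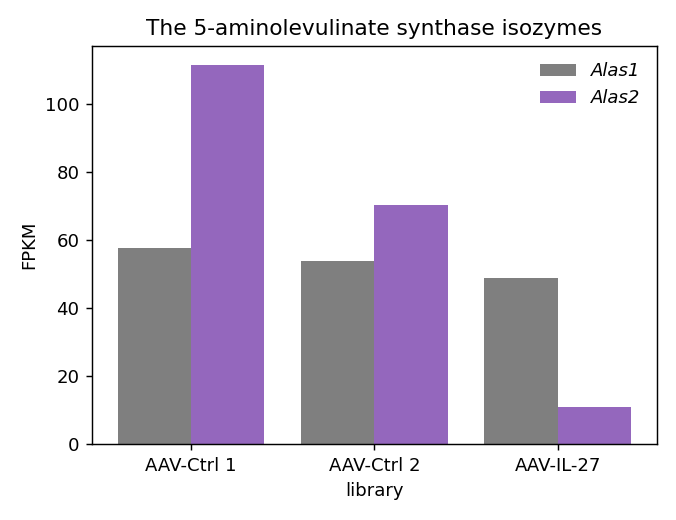
FPKM (vertical axis, from 0) of Alas1 (grey) and Alas2 (purple) in each of the 3 libraries, 1 bar per gene and library with no error bar. The grey bars stay between 48.83 and 57.52 FPKM, while the purple bar is the taller one in both AAV-Ctrl libraries and the shorter one, at 10.81 FPKM, in AAV-IL-27.

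Slc25a38, a mitochondrial carrier that brings in glycine for the ALAS reaction, did not follow Alas2. Its FPKM was 17.37, 17.8 and 17.81. The AAV-IL-27 value was 101% of the AAV-Ctrl mean, with a difference of 0.02 against 0.03 between the AAV-Ctrl libraries. All 3 values were alike, at estimated fragment numbers of 568, 591 and 583. Its rank among the 9 genes was 6 in both AAV-Ctrl libraries and 3 in AAV-IL-27, at a level that hardly differed.

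Alad, Uros and Urod encode cytosolic enzymes that assemble and trim the ring. Alad, 5-aminolevulinate dehydratase, condenses the product of ALAS into the pyrrole porphobilinogen, and was the lowest of the 9 genes in every library, at 2.74, 2.93 and 0.34 FPKM. The AAV-IL-27 value was 12.0% of the AAV-Ctrl mean of 2.83 ± 0.134 FPKM (SD, n = 2), or 8.34-fold lower. The log2 difference was -1.52 (-1.48 and -1.55 against AAV-Ctrl 1 and 2). The AAV-IL-27 value rests on about 7 fragments (exact 95% Poisson interval 2.81 to 14.4), against about 60 (45.8 to 77.2) and 65 (50.2 to 82.8) in the controls. These intervals cover counting error only, not the spread between mice, and the fold is imprecise.

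Uros, uroporphyrinogen III synthase, closes the ring in the isomer used for haem. Its FPKM was 3.84, 3.24 and 1.6, leaving AAV-IL-27 at 45.2% of the AAV-Ctrl mean. The difference of -0.80 (-0.90 and -0.71) did not reach the call, and the AAV-Ctrl libraries differed by -0.19. The estimated fragments were 108 (88.6 to 130), 93 (75.1 to 114) and 45 (32.8 to 60.2). Urod, uroporphyrinogen decarboxylase, acts next and showed the same order at a higher level, with 25.27, 22.64 and 14.0 FPKM. AAV-IL-27 was at 58.4% of the AAV-Ctrl mean of 24.0 ± 1.86 FPKM (SD, n = 2), a difference of -0.73 that was also short of the call. In the order of all genes tested by shortfall from the nearer control, Uros and Urod had ranks 394 and 442, against 93 for Alad.

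Cpox, Ppox and Fech encode the mitochondrial enzymes of the last steps, and these neighbours in the pathway differed from each other. Cpox, coproporphyrinogen oxidase, was at 8.59, 9.62 and 1.11 FPKM. The AAV-IL-27 value was 12.2% of the AAV-Ctrl mean of 9.11 ± 0.728 FPKM (SD, n = 2), or 8.20-fold lower. The difference was -2.26 (-2.18 and -2.33), rank 29 in that order. The controls differed by only 0.15 and in the direction opposite to Alas2, AAV-Ctrl 2 being the higher. Estimated fragments were 494 (451 to 540), 562 (516 to 610) and 64 (49.3 to 81.7).

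Ppox, protoporphyrinogen oxidase, takes the product of Cpox one step further, and showed no difference beyond the gap between the controls. Its FPKM was 35.18, 37.12 and 35.58, the AAV-IL-27 value lying between the 2 controls at 98.4% of their mean. Fech, ferrochelatase, inserts iron into protoporphyrin IX to finish haem. It was at 27.23, 20.42 and 5.04 FPKM, so that AAV-IL-27 had 21.2% of the AAV-Ctrl mean of 23.8 ± 4.82 FPKM (SD, n = 2), or 4.73-fold less. The difference was -2.03 (-2.22 and -1.83), rank 48 in the same order. As at Alas2, AAV-Ctrl 1 was the higher control, with a gap of -0.40 that 3.03% of genes exceeded.

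The lower genes thus did not form a run of consecutive steps: the first (through Alas2), Alad, Cpox and Fech were lower, with Uros and Urod lower by less and Ppox level. The 9 genes summed to 289.1, 237.9 and 135.1 FPKM. Without Alas2 the sums were 177.7, 167.6 and 124.3. Alas2, Alad, Cpox and Fech together summed to 103.3 FPKM in AAV-Ctrl 2, the lower of the controls, and to 17.3 in AAV-IL-27.

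Promoter sequences of genes that lay lower and of genes that were level are set side by side here. Start sites were matched in RefSeq (GRCm38.p6) for 8 of the 9 genes (all but Fech), giving 11 start sites in all, and the 250 bases before each were searched on both strands for the letters of a GATA motif (GATA preceded by A or T and followed by A or G). GATA-1 is the main transcription factor of red cell precursors, and the 5′ regions of several haem genes are textbook targets of it. Stretches from 150 to 51 bases before the start are shown for Alas2 (chrX:150547267-150547366, plus strand) and Cpox (chr16:58670058-58670157, plus strand), which lay lower and hold the letters, and for Ppox (chr1:171281237-171281336, minus strand) and Slc25a38 (chr9:120110232-120110331, plus strand), which were level and do not. For Uros, which lay lower by less, 30 bases around the match nearer its second start are shown (chr7:133702551-133702580, minus strand). The stretches shown are a selection. Alad, which also lay lower, and Urod, lower by less, do not hold the letters and are not shown. The stretches overlap no exon of GENCODE M21, except that of Uros, which lies in exons of other Uros transcripts. Each is written 5′ to 3′ on the strand of its gene, with GATA letters in capitals. All matches shown lie on the opposite strand, so that GATA reads TATC.
Alas2: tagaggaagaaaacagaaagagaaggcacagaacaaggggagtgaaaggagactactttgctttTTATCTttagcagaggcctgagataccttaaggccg
Cpox: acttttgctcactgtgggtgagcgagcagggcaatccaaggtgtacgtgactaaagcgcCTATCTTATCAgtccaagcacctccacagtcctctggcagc
Uros: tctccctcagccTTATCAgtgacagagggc
Ppox: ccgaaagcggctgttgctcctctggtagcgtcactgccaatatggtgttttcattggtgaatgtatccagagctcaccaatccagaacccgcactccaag
Slc25a38: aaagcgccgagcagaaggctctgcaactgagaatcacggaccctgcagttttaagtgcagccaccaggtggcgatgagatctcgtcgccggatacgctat

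GATA letters were found 1 time before Alas2 (from base -86), 2 times before Cpox (from -91 and -86, overlapping by a base) and 2 times before the second start of Uros (from -205 and -68). None was found in the windows of Ppox, Slc25a38, Urod, the first start of Uros or either start of Alas1 or Alad. Alad, which retained about the same percentage of its control level as Alas2 and Cpox, had none of these letters in its windows. Of all 32851 RefSeq windows of this length, 26.5% held them, and the share among the 11 windows here was close to this. The letters CCNCNCCC, bound by KLF1 and related factors, occurred 4 times before Alas2, 2 and 4 times before the starts of Alad, and also 1 and 2 times before those of Alas1 2 times before Slc25a38 and 1 time before the first start of Uros, with 45.9% of all windows holding them. Overlapping matches were counted separately. The ratio of observed to expected CpG was 0.30 before Alas2 (median of all windows 0.37), 0.51 before Cpox, 0.58 before Urod, 0.73 before Ppox and 1.1 before Slc25a38. It was 0.61 and 0.81 before the starts of Alad, 0.67 and 1.2 before those of Alas1 and 1.2 and 0.35 before those of Uros, so it did not separate the genes that lay lower from those that were level. These matches describe letters only, and FPKM is given per gene, so the start sites of Uros, Alad and Alas1 were not told apart.

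In GRCm38.p6, Ppox spans chr1:171276991-171281193, Alad chr4:62505984-62520063, Urod chr4:116989965-116994436, Uros chr7:133686142-133710467, Cpox chr16:58670208-58680391 and Alas2 chrX:150547417-150570622. Alas1 (chr9:106233455-106247954) and Slc25a38 (chr9:120110377-120126093) share a chromosome and had differences of -0.18 and 0.02, and Alad and Urod share another, with differences of -1.52 and -0.73.

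The percentage that each gene retained was next set beside that of the 15 erythroid markers, which ranged from 7.01% to 22.9% with a median of 13.1%. The markers at both ends and at the median (Klf1, Epor and Ermap, at 0.53, 0.83 and 0.76 FPKM in AAV-IL-27) were under 1 FPKM there and passed the filter through the AAV-Ctrl libraries, as did Alad, so these placements are a description only. Alas2, Alad and Cpox, at 11.9%, 12.0% and 12.2%, lay within that range, and each had 7 of the 15 markers below it. Fech, at 21.2%, had 14 of 15 below it. Uros (45.2%), Urod (58.4%), Alas1 (87.7%), Ppox (98.4%) and Slc25a38 (101%) retained more than every marker in the list. The neutrophil markers retained 79.3% to 113%, a range that also holds the last 3 of these genes. Erythroid markers of high and low level were both lower, from the globin gene Hba-a1 (8135.7, 5547.0 and 957.72 FPKM) and the globin chaperone gene Ahsp (86.5, 82.16 and 11.85) to the transcription factor genes Klf1 (7.18, 7.94 and 0.53) and Gata1 (3.83, 4.12 and 0.54).

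**Figure D3:**
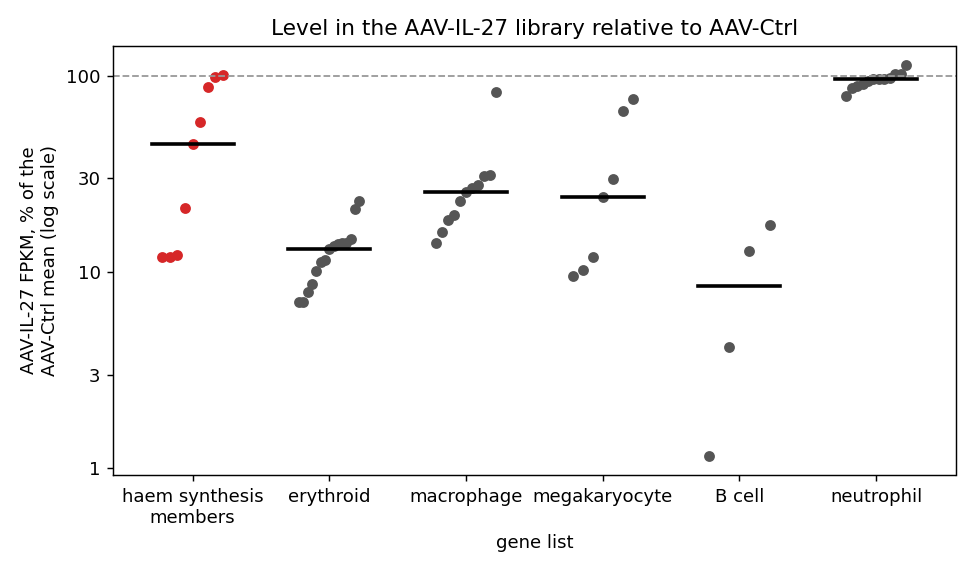
AAV-IL-27 FPKM as a percentage of the AAV-Ctrl mean (log scale, 1 point per gene tested, bar at the list's median) for the haem biosynthesis genes (red) and 5 lists of cell type markers (grey); the dashed line marks 100%. The haem genes spread from 11.9% to 101%, across the gap between the erythroid points (7.01% to 22.9%) and the neutrophil points (79.3% to 113%).

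Markers of other cells that a BM preparation can hold were also lower in AAV-IL-27, so erythroid genes were not alone. The 11 macrophage markers summed to 610.9, 643.4 and 174.1 FPKM, and 10 of 11 were called lower. Of the megakaryocyte markers 4 of 7 tested were lower (sums of all 8: 57.24, 64.2 and 11.86 FPKM), and of the B cell markers 4 of 4 tested (sums of all 8: 27.68, 35.06 and 4.38 FPKM). None of these markers was at 0. Between the controls (AAV-Ctrl 2 minus AAV-Ctrl 1), the erythroid list had a median of -0.18, with 10 of its 15 genes lower in AAV-Ctrl 2, like Alas2 and Fech, and 5 higher, like Cpox (0.15) and Alad (0.07). Klf1 (0.13) and Gata1 (0.08) were among these 5. The macrophage, megakaryocyte and B cell lists had medians of 0.05, 0.21 and 0.24. The part of these cells in the haem gene values was not tested.

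The genes whose pattern over the 3 libraries was nearest to that of Alas2 were globin genes. Likeness was the Euclidean distance between log2(FPKM + 1) values centred on each gene's mean. The 4 nearest genes were the adult globin genes, at distances of 0.0422 to 0.134, among them Hba-a1 (0.118) and Hba-a2 (0.134). Near-identical globin genes share fragments, so their single values are uncertain. Over 3 libraries this is a description of shape only.

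Genes that supply or serve the pathway were lower in part. Of 45 genes on 4 lists 43 were in the table and 39 passed the filter. Of these, 7 (17.9%, against 2.32% of all genes tested) were lower and 0 higher, with a median difference of -0.20. Slc6a9, Shmt2 and Steap3, counted among the 7, were under 1 FPKM in AAV-IL-27 and passed the filter through the AAV-Ctrl libraries, so the share is given as a description only. With any shortfall counted, 29 of the 39 lay below both AAV-Ctrl libraries, against 41.9% of all genes tested.

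Among 7 tested genes for glycine and succinyl-CoA supply (median difference -0.11, or -0.09 and -0.19 without AAV-Ctrl 1 and 2), 2 were lower. Slc6a9, a glycine transporter of the cell membrane, was at 2.61, 2.1 and 0.32 FPKM, a difference of -1.34. Shmt2, the mitochondrial enzyme that makes glycine from serine, was at 3.98, 3.38 and 0.81 FPKM (-1.37). Of the enzymes of succinyl-CoA supply, Ogdh stood at 21.55, 21.66 and 22.12 FPKM. Suclg2, which failed the filter, was at 1.04, 1.09 and 0.4 FPKM.

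Among 10 genes for iron uptake and delivery (median -0.26, or -0.09 over those with a mean FPKM of at least 5), 2 were lower. Tfrc, the transferrin receptor through which red cell precursors take up iron, was at 9.32, 8.12 and 1.86 FPKM, or 21.3% of the AAV-Ctrl mean (-1.76). Steap3, which reduces that iron in the endosome, was at 2.04, 2.76 and 0.5 FPKM (-1.17). Slc11a2, the exporter of endosomal iron, had 1.53, 2.04 and 0.3 FPKM and was not called, because it lay less than 1 log2 unit below AAV-Ctrl 1. The mitochondrial iron carriers retained much more, with Slc25a37 (mitoferrin 1) at 63.77, 61.65 and 50.32 FPKM and Slc25a28 (mitoferrin 2) at 24.85, 24.4 and 24.62.

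Iron-sulphur clusters are the cofactor through which iron status reaches the translation of Alas2 mRNA. Of 9 tested genes for their assembly (median -0.11, or -0.52 over those with a mean FPKM of at least 5), 1 was lower: Glrx5, a mitochondrial glutaredoxin that hands clusters on, at 17.31, 16.13 and 5.2 FPKM (-1.51, 31.1% of the AAV-Ctrl mean). Isca1, a late assembly factor, was at 27.66, 20.61 and 12.03 FPKM (-0.93), short of the call. The scaffold gene Iscu, by contrast, was at 82.66, 75.67 and 95.28 FPKM.

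Among 13 genes for porphyrin and haem transport, sensing and enzyme turnover (median -0.40), 2 were lower. Abcb10, a transporter of the inner mitochondrial membrane needed for haem synthesis in red cell precursors, was at 4.8, 4.71 and 1.74 FPKM (-1.07). Hebp1, a haem binding protein, was at 6.82, 8.36 and 2.41 FPKM (-1.33). Clpx, the mitochondrial unfoldase that activates ALAS, was at 5.8, 5.87 and 5.73 FPKM, and Eif2ak1, the kinase that halts globin translation when haem is short, at 41.66, 36.4 and 34.36.

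**Figure D4:**
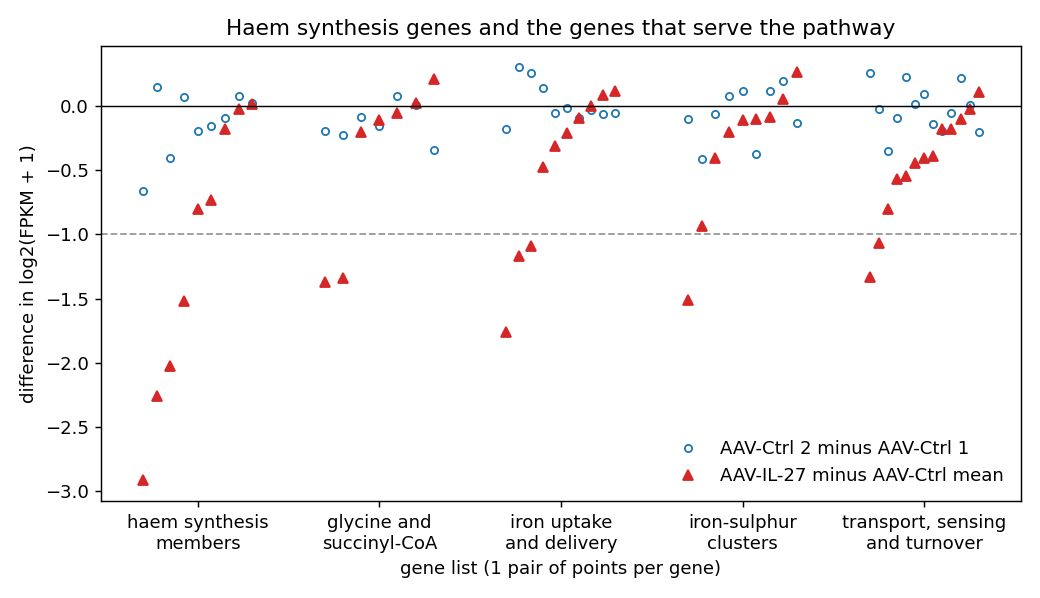
Differences in log2(FPKM + 1) for the 9 haem biosynthesis genes and the 39 tested genes of 4 supply lists, 1 pair of points per gene sorted by size (triangles, AAV-IL-27 minus the AAV-Ctrl mean; open circles, AAV-Ctrl 2 minus AAV-Ctrl 1; dashed line, -1). The haem genes reach down to -2.92, while the supply lists have medians between -0.40 and -0.11 and their lowest gene, Tfrc, is at -1.76.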

How the data were processed

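RNA of BM Ly6G+ cells was enriched with oligo-dT, and strand-marked (dUTP) libraries were sequenced on a DNBSEQ instrument at BGI. The authors deposited FPKM values with 2 decimals for 16073 rows (1 has no symbol and was left out). The build is mm10 per the submitters' processing notes. The aligner, the counter and whether counting used strand are not given in the sources used here, and an antisense gene overlaps the start of Alas1. Groups came from the sample labels. The design text counts 4 mice in all but assigns 3, and 3 libraries are listed. Left aside was 1 further per-sample column, which is named as another AAV-IL-27 replicate and fits none of them, although the study describes 2 samples per group. Another enzyme of the pathway was not analysed here.

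Differences were taken as log2(FPKM + 1), with a pseudocount of 1. A gene was called lower or higher at 1 log2 unit or more from each control library, if its FPKM averaged 1 or more over the libraries. The study's methods read very small samples descriptively, and no test was run. The genes named are the 9 genes, genes of the fixed lists, and the 5 genes nearest in pattern to Alas2, of which 1 is not reported here. Genes of the lists that were not called were named to show contrasts, after their values were seen. The 9 genes, the lists and the alternatives were chosen with earlier results of these data known.

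Depth was estimated from the FPKM steps of 431, 418 and 411 low values of single-transcript genes (GENCODE M21). Of these values 82.1%, 80.9% and 78.3% lay within 0.2 fragments of a whole number, so fragments are estimated, and count models were not applied. For Alas1, Alas2, Alad and Uros, which list several transcripts, the mean transcript length was used. The Poisson intervals treat the rounded fragment estimates as counts. Alternatives covered pseudocounts, filters, thresholds, rescaling and leaving out each AAV-Ctrl library. Scripts were tested on simulated data. Software was scipy 1.17.1, pandas 2.3.3 and numpy 2.4.6 under Python 3.11.15, with matplotlib 3.10.9 for plots.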

Additional observations from a re-analysis of the deposited data

How the results depend on the processing

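The count of 4 lower genes among the 9 was the same with a pseudocount of 0.1, with either rescaling, with no filter on low values and without either AAV-Ctrl library. It was 5 with a pseudocount of 0.01 (Uros added), 6 at a threshold of 0.5 (Uros and Urod added), 3 at a mean FPKM of at least 5 (Alad not tested) and 2 at a threshold of 2 (Alas2 and Cpox). The median difference over the 9 genes was -1.09 and -1.14 with pseudocounts of 0.1 and 0.01, and -0.90 to -0.71 when 1 AAV-Ctrl library was left out. Over all genes tested, 396 and 425 were lower with pseudocounts of 0.1 and 0.01, 640 and 39 at thresholds of 0.5 and 2, 93 at a mean FPKM of at least 5, and 243 to 294 when 1 AAV-Ctrl library was left out. Higher genes numbered 46 with a pseudocount of 0.01, 143 and 5 at thresholds of 0.5 and 2, and 40 to 49 when 1 AAV-Ctrl library was left out. The cause of these shifts was not tested beyond the thresholds themselves. Differences spanned -3.25 to -2.59 for Alas2, -3.02 to -2.18 for Cpox, -2.22 to -1.83 for Fech and -3.02 to -1.48 for Alad, and kept their sign. Ppox (-0.06 to 0.04) and Slc25a38 (0.0 to 0.07) lay on both sides of 0 or at it. Of 72 alternative medians of the lists, 71 kept their sign, but 33 moved by more than the spread between the controls, such as iron-sulphur assembly (-0.52) and iron uptake (-0.09) at a mean FPKM of at least 5. Rescaling shifted the differences of the genes tested by a median of 0.037 (equal totals) and 0.053 (median ratio). No paired analysis was possible because AAV-IL-27 has 1 library. With 1 library in that group, no spread can be given for it, and Alad rests on few fragments.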
